A study of Mus musculus with 22 samples.

Results

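The 30 microglia and macrophage genes described here were taken from the RNA table of the embryonic mouse telencephalon by their symbols, and all 30 were found among its 55385 rows. They are the growth factor, chemokine and purine receptors Csf1r, Cx3cr1, P2ry12, P2ry13 and Gpr34, the other surface proteins Tmem119, Siglech, Fcrls, Selplg, Itgam and Itgb5, and the phagocytic receptors and signalling adaptors Trem2, Tyrobp, Fcer1g and Mrc1. To these come the complement subunits C1qa, C1qb and C1qc, the lysosomal and secreted proteins Cd68, Ctss, Lyz2, Laptm5, Ly86 and Olfml3, the pan-leukocyte and cytoplasmic proteins Ptprc, Cd53, Aif1 and Lpcat2, and the transcription factors Spi1 and Irf8. The study compared the telencephalon, the forebrain region that forms the cortex and basal ganglia, of ICR mouse embryos at embryonic day 16.5 (E16.5) with that at embryonic day 13.5 (E13.5). No group carried a genetic change or a treatment in the labels. RNA-seq and native ChIP-seq, a precipitation of chromatin that has not been crosslinked, covered both stages for histone H3 acetylated (H3K9ac) or crotonylated (H3K9cr) at 1 lysine or lactylated at another (H3K18la), ATAC-seq of open chromatin covered E13.5, and each group held 2 libraries stated to be biological replicates. The sources used here do not state how many embryos made up a library.

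Microglia are the resident macrophages of the brain. They arise from yolk sac progenitors that enter the neural tube in early embryogenesis and then multiply inside it, and they depend on the receptor encoded by Csf1r and on the transcription factors encoded by Spi1 (PU.1) and Irf8. Acetylation and crotonylation of histone H3 mark active promoters and enhancers, and lactylation of histone H3 has been described at active genes of macrophages. In a whole telencephalon, microglia are a small minority among progenitors and neurons, so both the RNA and the chromatin of these genes come from a mixture of cells.

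Promoters of 6 members are shown here because the results turn on them. RefSeq's promoter table (GRCm38.p6) covered 23 of the 30 members, with a window of 300 bases running from 250 before the annotated start to 50 after it. P2ry12 (minus strand, chr3:59262936-59263235) had H3K9ac and H3K9cr beside its start at E16.5 and not at E13.5. Irf8 (plus strand, chr8:120736108-120736407) was acetylated and crotonylated over its start in every library. Lpcat2 (plus strand, chr8:92855083-92855382) had the strongest H3K9ac peaks over a start among the members. Trem2 (plus strand, chr17:48346151-48346450), Itgam (plus strand, chr7:128062390-128062689) and Laptm5 (plus strand, chr4:130913066-130913365) rose in RNA without a peak of any mark at the start. Each sequence reads 5′ to 3′ on the strand of its gene. Capitals mark GAGGAAG, the type of site bound by PU.1, or its reverse complement, and in Lpcat2 the composite of an ETS and an IRF half-site, GGAANNGAAA. No letters of P2ry12 or Irf8 are in capitals because neither motif was found in those windows.
P2ry12: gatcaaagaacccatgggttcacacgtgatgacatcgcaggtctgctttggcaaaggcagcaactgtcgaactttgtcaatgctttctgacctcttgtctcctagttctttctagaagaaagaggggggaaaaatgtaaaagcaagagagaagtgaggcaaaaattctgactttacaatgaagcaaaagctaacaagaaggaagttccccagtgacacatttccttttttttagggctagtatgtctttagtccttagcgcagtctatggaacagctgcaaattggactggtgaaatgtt
Irf8: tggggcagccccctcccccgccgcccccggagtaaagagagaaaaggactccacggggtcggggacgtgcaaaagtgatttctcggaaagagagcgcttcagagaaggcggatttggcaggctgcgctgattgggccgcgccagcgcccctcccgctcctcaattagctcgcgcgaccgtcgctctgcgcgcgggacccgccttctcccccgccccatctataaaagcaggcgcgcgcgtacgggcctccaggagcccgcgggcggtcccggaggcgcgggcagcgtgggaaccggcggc
Lpcat2: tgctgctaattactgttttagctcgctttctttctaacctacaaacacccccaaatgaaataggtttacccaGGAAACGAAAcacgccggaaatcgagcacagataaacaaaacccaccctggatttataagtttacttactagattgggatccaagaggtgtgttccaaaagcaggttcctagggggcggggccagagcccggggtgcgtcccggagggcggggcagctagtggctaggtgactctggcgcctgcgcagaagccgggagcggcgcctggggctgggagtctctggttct
Trem2: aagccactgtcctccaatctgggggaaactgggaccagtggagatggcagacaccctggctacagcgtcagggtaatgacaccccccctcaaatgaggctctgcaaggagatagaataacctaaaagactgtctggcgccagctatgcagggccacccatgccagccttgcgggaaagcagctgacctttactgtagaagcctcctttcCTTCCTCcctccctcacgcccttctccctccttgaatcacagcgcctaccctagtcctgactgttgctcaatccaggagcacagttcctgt
Itgam: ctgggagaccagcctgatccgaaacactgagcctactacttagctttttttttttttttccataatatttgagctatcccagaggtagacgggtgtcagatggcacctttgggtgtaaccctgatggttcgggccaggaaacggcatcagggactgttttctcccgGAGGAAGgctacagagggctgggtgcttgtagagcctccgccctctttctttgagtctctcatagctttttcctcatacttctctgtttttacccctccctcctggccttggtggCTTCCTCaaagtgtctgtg
Laptm5: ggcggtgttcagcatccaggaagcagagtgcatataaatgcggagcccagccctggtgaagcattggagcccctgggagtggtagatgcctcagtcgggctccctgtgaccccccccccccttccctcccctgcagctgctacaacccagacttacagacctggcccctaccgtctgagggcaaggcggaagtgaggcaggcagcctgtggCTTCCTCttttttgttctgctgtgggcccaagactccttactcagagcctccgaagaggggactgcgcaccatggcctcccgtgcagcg

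Both motifs were searched on both strands, and they share letters only in their GGAA core. GAGGAAG stood in 9 of the 23 members with a window (39.1%), against 15.4% of all 27025 genes of the table and 13.6% of its 32851 promoters. The members were C1qc, Cd53, Ctss, Fcrls, Itgam, Laptm5, Mrc1, P2ry13 and Trem2. In Trem2 and Laptm5 the match began at -41 and -39 relative to the start, and Itgam and Mrc1 each held 2 matches. The composite stood in 2 of 23 members, Cd68 and Lpcat2 (8.7%), against 3.16% of genes and 2.72% of promoters. These are descriptions of letters and not of bound sites.

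The RNA libraries held 17533164 and 18024657 counts at E16.5 and 17059544 and 18485855 counts at E13.5. RNA levels are given as CPM, that is, library-size-normalised counts, so that 3 counts corresponded to 0.162 to 0.176 CPM in a library. Levels were not divided by transcript length and are mainly compared between stages. Where levels of different genes are set side by side, differences in transcript length also enter. The tissue label was checked with 8 telencephalon genes, whose summed level was 2274 and 2269 CPM at E16.5 and 3389 and 3219 CPM at E13.5. By the test described below, 7 of the 8 were called lower at E16.5, against 29.2% of all genes.

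The RNA comparison asked how far the transcripts of microglia and macrophages differed between the stages. All 30 members were measured well enough to be tested, and all 30 had a higher mean at E16.5. A gene was called when the Benjamini-Hochberg adjusted p of edgeR's quasi-likelihood test was under 0.05 over 16237 genes, and 21 members were called higher, none was called lower and 9 were not called. Over all genes, 28.4% were called higher and 29.2% lower, and 57.6% were called in either direction. The median log2 change of the members, E16.5 minus E13.5, was 1.03 (a fold of 2.04), against 0.00875 for all genes tested. Summed over the 30 genes, the level was 262.1 and 253.4 CPM in the E16.5 libraries, against 121.6 and 124.3 CPM in the E13.5 libraries, a ratio of 2.10. In 28 members both E16.5 libraries lay above both E13.5 libraries, which held for 39.6% of all genes. The exceptions were Fcer1g and Mrc1. In bulk tissue, more cells of a type and more RNA per cell cannot be told apart.

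**Figure D1:**
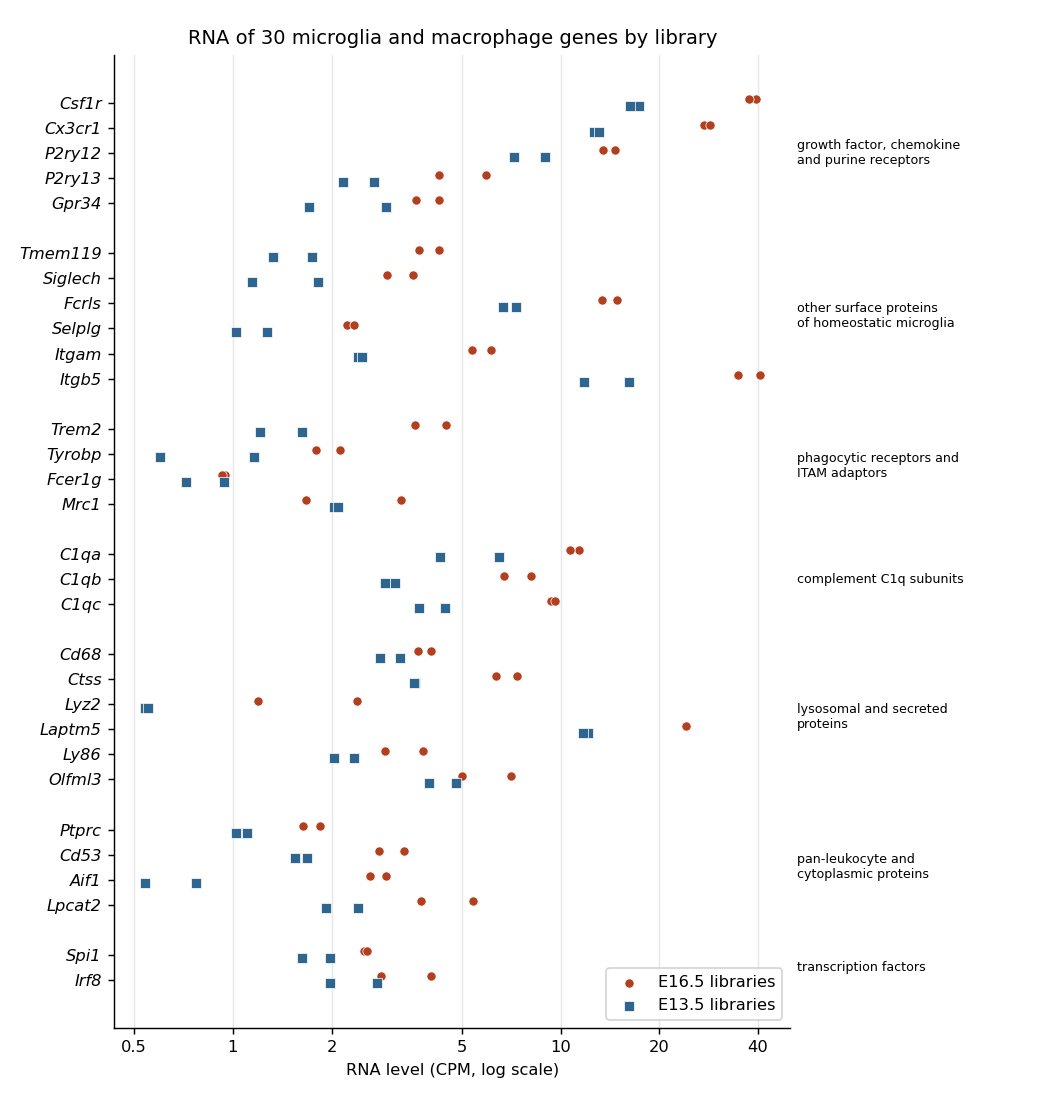
RNA level of each of the 30 genes in each library, in CPM on a log scale, grouped by role, with circles for the 2 E16.5 libraries and squares for the 2 E13.5 libraries. The circles lie to the right of the squares for 28 genes, and for Fcer1g and Mrc1 the stages overlap.

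Other cell types of the tissue also differed between the stages. All 10 endothelial markers, genes of the vessel wall, were called higher, against 28.4% of all genes, with a median log2 change of 1.63. Their summed level was 388.1 and 404.3 CPM at E16.5 and 115.6 and 127.2 CPM at E13.5. Of 7 erythroid genes 5 were called higher, against the same 28.4% of all genes, with a median log2 change of 0.95. By contrast, the genes of 3 other blood lineages were close to the detection limit. The 9 neutrophil genes summed to 1.23 and 1.80 CPM at E16.5 and to 0.420 and 0.386 CPM at E13.5, with Elane and Ly6g at 0 counts. The 10 lymphocyte genes summed to 0.614 and 0.980 CPM at E16.5 and to 0.360 and 0.496 CPM at E13.5, and Cd3e, Cd8a and Nkg7 were among those at 0 counts. For the 6 monocyte genes the sums were 0.0558 and 0.653 CPM at E16.5 and 0.240 and 0.275 CPM at E13.5. None of these genes was abundant enough to be tested. Of 7 genes of mast cells and megakaryocytes, 2 were tested and Gp1bb, a platelet membrane glycoprotein, was called higher by a log2 change of 1.63, though not without the second E16.5 library. What part the larger endothelial and erythroid signal had in the members' values was not tested.

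Among the receptors, 4 of 5 rose and Gpr34 was not called. Csf1r, the receptor for the growth factors CSF1 and IL-34, had 39.4 and 37.4 CPM at E16.5 and 17.3 and 16.3 CPM at E13.5. The libraries of each stage lay close together and far from the other stage, and the log2 change was 1.20 (SE 0.09, adjusted p = 1.64e-05). Cx3cr1, the fractalkine receptor, had 27.3 and 28.5 CPM at E16.5 and 12.6 and 13.1 CPM at E13.5, a log2 change of 1.12 (SE 0.10). P2ry12, an ADP receptor that steers microglial processes toward injury, had 13.4 and 14.6 CPM at E16.5 and 7.20 and 8.98 CPM at E13.5. Its log2 change of 0.79 (SE 0.15, adjusted p = 0.00262) was the smallest among the called members.

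P2ry13, a related purine receptor, had 5.91 and 4.24 CPM at E16.5 and 2.16 and 2.70 CPM at E13.5, with a log2 change of 1.06 (SE 0.27, adjusted p = 0.0111). Its call rested on the first E16.5 library, since without it the log2 change was 0.79 with an adjusted p of 0.103, in a range of 0.00702 to 0.103 over the alternatives. Gpr34, a receptor for lysophosphatidylserine, had 3.63 and 4.24 CPM at E16.5 and 2.94 and 1.71 CPM at E13.5. The stages did not overlap, but the E13.5 libraries lay far apart, and the log2 change of 0.77 was not called (adjusted p = 0.0696). It was called with upper-quartile scaling (0.86, adjusted p = 0.0481) and without the first E13.5 library (1.19, adjusted p = 0.0147; range over the alternatives 0.0147 to 0.339).

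All 6 of the other surface proteins rose. Itgb5, an integrin beta subunit that many other cell types also make, had 40.5 and 34.8 CPM at E16.5 and 11.8 and 16.1 CPM at E13.5, a log2 change of 1.43 (SE 0.15). Tmem119, a membrane protein used as a marker of mature microglia, had 4.24 and 3.70 CPM at E16.5 and 1.74 and 1.32 CPM at E13.5, a log2 change of 1.37 (SE 0.29). Fcrls, an Fc receptor-like scavenger receptor, had 14.9 and 13.4 CPM at E16.5 and 7.32 and 6.67 CPM at E13.5, a log2 change of 1.02 (SE 0.14). In these 3 genes every E16.5 library was above every E13.5 library by more than the distance within a stage.

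Itgam encodes CD11b, the alpha chain of a complement receptor, and it had 5.36 and 6.15 CPM at E16.5 and 2.40 and 2.48 CPM at E13.5, a log2 change of 1.24 (SE 0.23). Siglech, a sialic acid-binding lectin, had 2.96 and 3.54 CPM at E16.5 and 1.14 and 1.82 CPM at E13.5, a log2 change of 1.13 (SE 0.33). Selplg, the P-selectin ligand, had 2.23 and 2.34 CPM at E16.5 and 1.02 and 1.27 CPM at E13.5, a log2 change of 0.99 (SE 0.33). In all 3 genes the stages did not overlap, but the calls of Siglech and Selplg were less stable. DESeq2 called neither, with adjusted p of 0.0824 for Siglech and 0.196 for Selplg. Without the first E13.5 library Siglech had an adjusted p of 0.0865 and Selplg of 0.133. Without the second E16.5 library Siglech was at 0.113 and Selplg at 0.142. Selplg was also not called without the first E16.5 library (0.108), nor without the second E13.5 library (0.0653). Over all alternatives the adjusted p of Siglech lay between 0.0129 and 0.113 and that of Selplg between 0.023 and 0.196.

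Of the 4 phagocytic receptors and adaptors, Trem2 and Tyrobp rose and Fcer1g and Mrc1 were not called. Trem2, a lipid-sensing phagocytic receptor, had 4.46 and 3.59 CPM at E16.5 and 1.62 and 1.21 CPM at E13.5. Its stages were well apart, with a log2 change of 1.51 (SE 0.30, adjusted p = 0.00324). Tyrobp encodes DAP12, the adaptor that carries the signal of TREM2, and had 2.12 and 1.80 CPM at E16.5 and 0.600 and 1.16 CPM at E13.5. The log2 change of Tyrobp was 1.14 (SE 0.41, adjusted p = 0.0441). DESeq2 did not call it (adjusted p = 0.187). The call also did not hold without the first E13.5 library (0.21), the first E16.5 library (0.185) or the second E16.5 library (0.102). With the replicate number as a block the adjusted p of Tyrobp was 0.0513, in a range of 0.0267 to 0.21 over the alternatives.

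Fcer1g, the Fc receptor gamma chain that is the other adaptor of this kind in the list, was the lowest in counts, with 63 counts over the 4 libraries. It had 0.948 and 0.925 CPM at E16.5 and 0.720 and 0.936 CPM at E13.5, so the stages overlapped, and the log2 change was 0.17 with a 95% interval of -0.79 to 1.13. Mrc1, the mannose receptor CD206 that is also a marker of macrophages at the borders of the brain, had 1.67 and 3.27 CPM at E16.5 and 2.04 and 2.09 CPM at E13.5. The E16.5 libraries of Mrc1 stood on either side of the E13.5 libraries, and the log2 change of 0.26 had a 95% interval of -0.60 to 1.12. Without the second E16.5 library it was -0.31.

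The 3 subunits of complement C1q, which starts the classical pathway and tags synapses and debris for removal, all rose. C1qa had 11.4 and 10.7 CPM at E16.5 and 6.48 and 4.30 CPM at E13.5, a log2 change of 1.04 (SE 0.21). C1qb had 6.70 and 8.11 CPM at E16.5 and 3.12 and 2.92 CPM at E13.5, a log2 change of 1.29 (SE 0.21). C1qc had 9.32 and 9.63 CPM at E16.5 and 4.44 and 3.69 CPM at E13.5, a log2 change of 1.22 (SE 0.18). The 95% intervals of the 3 changes overlapped, with lower bounds of 0.55, 0.80 and 0.80 in the order of the subunits, and no difference between subunits was tested. The genes lie side by side on chromosome 4 and their products assemble into 1 complex.

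Lysosomal and secreted proteins were split, with Laptm5, Ctss and Lyz2 called higher and Cd68, Ly86 and Olfml3 not called. Laptm5, a lysosomal membrane protein of blood cells, had 24.1 CPM in both E16.5 libraries and 12.1 and 11.7 CPM at E13.5, a log2 change of 1.02 (SE 0.10). Ctss, the lysosomal protease cathepsin S, had 6.36 and 7.35 CPM at E16.5 and 3.60 and 3.58 CPM at E13.5, a log2 change of 0.93 (SE 0.20). Lyz2, the lysozyme of myeloid cells, had 2.40 and 1.20 CPM at E16.5 and 0.540 and 0.551 CPM at E13.5. Both E16.5 libraries were above both E13.5 libraries but far from each other, and the log2 change of 1.71 had the largest standard error of the 30, 0.48. DESeq2 gave Lyz2 an adjusted p of 0.0667. When the first E16.5 library was left out its log2 change was 1.11 and not called, with an adjusted p of 0.187 (range over the alternatives 0.00778 to 0.187).

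Cd68, a lysosomal glycoprotein used to stain macrophages, had 3.68 and 4.03 CPM at E16.5 and 3.24 and 2.81 CPM at E13.5, a log2 change of 0.35 (adjusted p = 0.251). Ly86, the MD-1 partner of a Toll-like receptor homologue, had 2.90 and 3.81 CPM at E16.5 and 2.34 and 2.04 CPM at E13.5, a log2 change of 0.62 (adjusted p = 0.0982). Olfml3, a secreted olfactomedin-like protein, had 7.03 and 5.01 CPM at E16.5 and 3.96 and 4.79 CPM at E13.5, a log2 change of 0.46 (adjusted p = 0.14). Although no E13.5 library of these 3 genes reached an E16.5 library, the distance between the stages was not large against the spread within them. The 95% intervals were -0.21 to 0.91 for Cd68, -0.04 to 1.28 for Ly86 and -0.10 to 1.01 for Olfml3, each of which includes 0.

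Of the pan-leukocyte and cytoplasmic genes, Aif1, Cd53 and Lpcat2 were called higher. Aif1, which encodes the calcium-binding protein IBA1 used to stain microglia, had 2.62 and 2.94 CPM at E16.5 and 0.540 and 0.771 CPM at E13.5. Its log2 change of 2.07 (SE 0.36, adjusted p = 0.00156), a fold of 4.19, was the largest of the 30. Lpcat2, an enzyme that makes platelet-activating factor, had 5.41 and 3.75 CPM at E16.5 and 2.40 and 1.93 CPM at E13.5, a log2 change of 1.08 (SE 0.29). Cd53, a tetraspanin of leukocytes, had 2.79 and 3.32 CPM at E16.5 and 1.68 and 1.54 CPM at E13.5, a log2 change of 0.92 (SE 0.29). Cd53 was called neither by DESeq2 (adjusted p = 0.158) nor when any 1 library was left out, with adjusted p between 0.057 and 0.166, and Lpcat2 was not called without the first E16.5 library (0.121), nor without the second E13.5 library (0.0538). Over all alternatives the adjusted p of Cd53 ran from 0.0191 to 0.166 and that of Lpcat2 from 0.0085 to 0.121. Ptprc, the leukocyte phosphatase CD45, had 1.84 and 1.63 CPM at E16.5 and 1.02 and 1.10 CPM at E13.5, and its log2 change of 0.71 was not called (adjusted p = 0.119).

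Neither transcription factor was called. Spi1 had 2.51 and 2.56 CPM at E16.5 and 1.62 and 1.98 CPM at E13.5, a log2 change of 0.49 with a 95% interval of -0.20 to 1.18 (adjusted p = 0.195). Irf8 had 4.02 and 2.83 CPM at E16.5 and 1.98 and 2.75 CPM at E13.5, a log2 change of 0.53 with a 95% interval of -0.19 to 1.24 (adjusted p = 0.18). In both genes the stages did not overlap, though the lower E16.5 library of Irf8 was nearly level with the higher E13.5 library. Both intervals include 0 and also the median change of the members, so the data do not show that the factors changed less than their lineage genes.

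**Figure D2:**
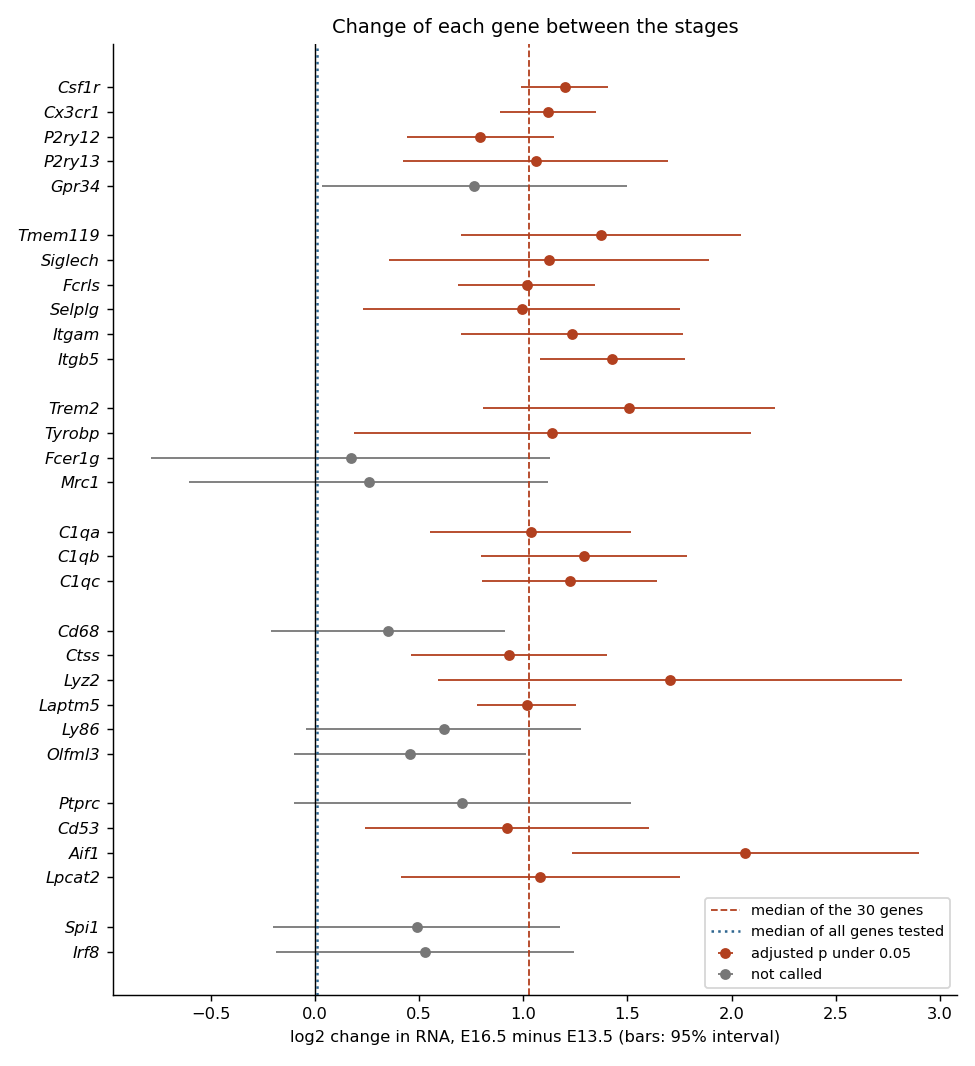
Log2 change in RNA of each gene, E16.5 minus E13.5, with its 95% interval, in red where the adjusted p was under 0.05 and in grey where it was not. The dashed line is the median of the 30 genes (1.03) and the dotted line that of all genes tested (0.00875), and all 30 points lie above 0.

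The 9 members that were not called had log2 changes of 0.17 to 0.77, all smaller than those of the 21 called members, 0.79 to 2.07. Their median mean level was 2.77 CPM, against 4.10 CPM for the 21 called members, and Olfml3 was the highest of them at 5.20 CPM. All 10 members above that level were called, while 11 at or below it were called too. The standard error of the log2 change ran from 0.0896 for Csf1r to 0.48 for Lyz2. Of the 21 calls, 14 held in all 10 alternative analyses, namely those of Csf1r, Cx3cr1, P2ry12, Tmem119, Fcrls, Itgam, Itgb5, Trem2, the C1q subunits, Ctss, Laptm5 and Aif1. An adjusted p under 0.05 was given to 16 members in the authors' deposited table, all of them higher and all among the 21 called here. DESeq2 on the same counts also called 16, and over all genes it called 3407 of 16844 higher. The authors' notes name DESeq2 too, so the 2 counts are not independent, and the share of all genes in their table was not counted.

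A list of 9 genes of microglial growth and tethering was also measured, of which Sirpa and Nrros do not encode ligands. All 9 were called higher, against 28.4% of all genes, with a median log2 change of 1.46. Il34, a ligand of the Csf1r receptor, had 3.01 and 2.34 CPM at E16.5 and 0.360 and 0.165 CPM at E13.5, a log2 change of 3.33. Csf1, the other ligand of that receptor, had 17.9 and 21.3 CPM at E16.5 and 12.1 and 11.9 CPM at E13.5, a log2 change of 0.71. Cx3cl1, the ligand of Cx3cr1, had 29.0 and 32.8 CPM at E16.5 and 10.3 and 12.2 CPM at E13.5, a log2 change of 1.46. In each of these ligands the stages were clearly apart. Cd200, a neuronal surface protein that restrains microglia, and Tgfb2, a growth factor of the TGF-beta family, had log2 changes of 1.70 and 1.58. Of this list, Csf1 and Cx3cl1 were picked to stand beside the receptors after their values were seen, and Sirpa and Nrros are named for their role alone.

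A further 30 microglial and macrophage genes gave a less uniform picture. Of the 27 that could be tested, 12 were called higher (28.4% over all genes), 1 lower (29.2% over all genes) and 14 neither. Their median log2 change was 0.69. The largest rises were those of Slco2b1, an organic anion transporter (2.26), Hcls1, a leukocyte cytoskeletal protein (1.37), and Unc93b1, which carries Toll-like receptors to endosomes (1.25). Sall1, a transcription factor of microglia that neural progenitors also make, had 78.3 and 80.3 CPM at E16.5 and 156.4 and 158.4 CPM at E13.5, a log2 change of -0.99. It was the gene of that list called lower. DESeq2 called 7 of these genes higher, as did the fit without the second E13.5 library.

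In a list of 12 genes named for activated and growth-region microglia, 7 of the 9 that could be tested were called higher, against 28.4% of all genes. Their median log2 change was 1.82. The list summed to 300.9 and 292.8 CPM at E16.5 and 110.6 and 103.0 CPM at E13.5, above the sum of the 30 members at E16.5. Which cell types made these transcripts was not tested. Igf1, a growth factor, had 4.52 and 4.14 CPM at E16.5 and 0.540 and 1.05 CPM at E13.5, and Spp1, osteopontin, had 4.63 and 4.95 CPM at E16.5 and 1.32 and 1.21 CPM at E13.5. Their log2 changes were 2.43 and 1.92. Cst7 and Clec7a, of the same list, had at most 0.327 CPM in any library. Complement genes beyond C1q were called higher in 4 of 5 tested, against 28.4% of all genes. They were led by Itgb2, the beta chain that pairs with Itgam, with 2.12 and 2.01 CPM at E16.5 and 0.660 and 0.551 CPM at E13.5 (log2 change 1.76). That count of 4 was 2 with DESeq2 and without either E16.5 library. Of 5 tested interferon and antigen presentation genes, 2 were called higher, against 28.4% of all genes. They were H2-D1 and B2m, a heavy chain and the light chain of MHC class I, with log2 changes of 1.17 and 0.48. The list median was 0.24. DESeq2 and the fits without the second library of either stage called 1 of the 5 higher.

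Most genes of the list for macrophages at the brain's borders had few or no counts. Of 12 genes of border-associated and yolk sac macrophages, 3 were tested, 5 had too few counts and Cbr2, Cd209f, Clec4n and Timd4 had 0 counts in all 4 libraries. Dab2, an endocytic adaptor, and Stab1, a scavenger receptor, were called higher by log2 changes of 1.25 and 0.997, and both are also made by other cell types. F13a1, a subunit of coagulation factor XIII, had 0.670 and 1.03 CPM at E16.5 and 0.720 and 0.441 CPM at E13.5, and its log2 change of 0.56 was not called (adjusted p = 0.369). Lyve1, Pf4, Cd163 and Ms4a7 did not exceed 0.381 CPM in any library.

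The peak comparison asked which members carried each mark. A gene was counted as marked in a library when a deposited peak overlapped its RefSeq span, widened by 2 kb on each side, by at least 1 bp, and as marked at a stage when both libraries did. All 30 members had a position, as did 21123 protein-coding genes. H3K9ac marked 10 members at E16.5, where 70.0% of all genes were marked, and 7 at E13.5, where 67.0% were. H3K9cr marked 9 members and 69.7% of all genes at E16.5, and 7 members and 67.2% of all genes at E13.5. H3K18la marked 8 members and 59.8% of all genes at E16.5, and 11 members and 63.2% of all genes at E13.5. ATAC-seq peaks at E13.5 marked 11 members, against 53.1% of all genes. For every mark the members' share, at 23.3% to 36.7%, was below that of the genome. These are counts, and no test was run on them.

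**Figure D3:**
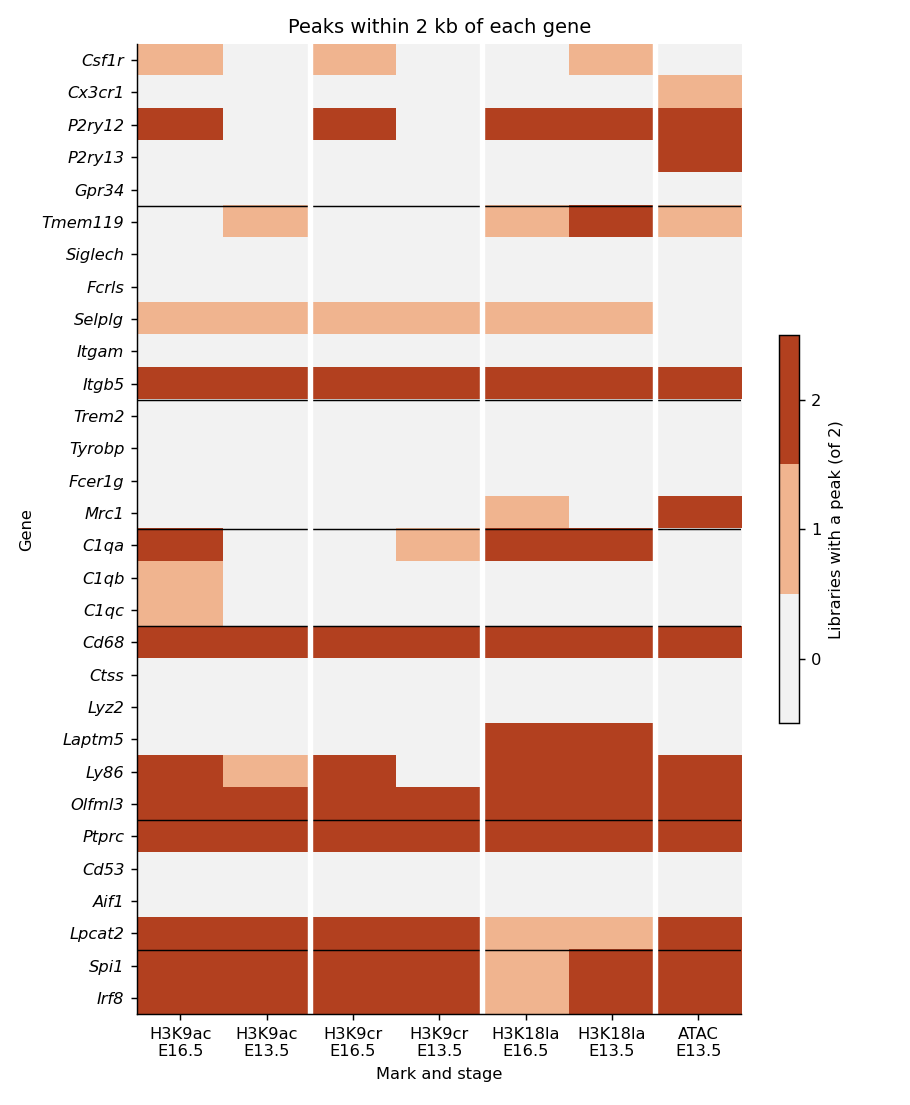
Number of libraries, of 2, in which each gene had a peak within 2 kb, for each mark and stage, with E16.5 left of E13.5 and lines between role groups. Cd68, Itgb5, Olfml3 and Ptprc are filled throughout, and 11 genes are empty in all 14 libraries.

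Protein-coding genes in the same RNA range were marked more often, though more of them than of the members lay at its upper end. Among the 6117 protein-coding genes whose mean RNA lay within the members' range of 0.883 to 27.6 CPM, H3K9ac marked 92.9% at E16.5 and 90.2% at E13.5. The shares were 92.7% at E16.5 and 90.5% at E13.5 for H3K9cr, 75.6% at E16.5 and 80.8% at E13.5 for H3K18la, and 67.6% for ATAC-seq at E13.5. Under 5 CPM lay 19 members and 2025 of these genes. There H3K9ac marked 84.0% of genes and 6 members at E16.5, and 77.8% of genes and 5 members at E13.5. ATAC-seq marked 49.9% of genes and 8 of the 19 members. From 5 CPM up, H3K9ac at E16.5 marked 97.2% of 4092 genes and 4 of 11 members, and ATAC-seq 76.3% of genes and 3 members. The members' gene spans, with a median of 16470.5 bp, were close in size to those of all genes (17579 bp). Low marking did not extend to the further 30 microglial and macrophage genes described above. H3K9ac marked 22 of those 30 at E16.5 and 19 at E13.5, against 70.0% and 67.0% of all genes. H3K18la marked 18 of them at each stage, against 59.8% of all genes at E16.5 and 63.2% at E13.5. Endothelial genes, another minority cell type, were marked by H3K9ac in 6 of 10 at E16.5 and 3 of 10 at E13.5. All 8 telencephalon genes were marked by all 3 histone marks at both stages.

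**Figure D4:**
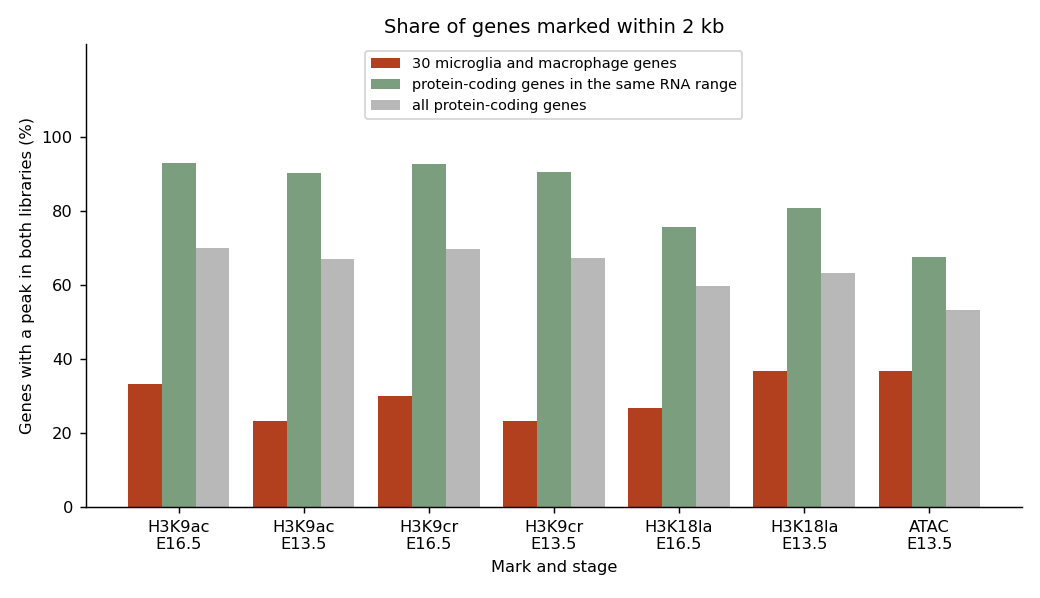
Share of genes, in percent, with a peak within 2 kb in both libraries of a stage, for the 30 members (left bar of each group), the 6117 protein-coding genes in the members' RNA range (middle) and all 21123 protein-coding genes (right). The members' bars, from 23.3% to 36.7%, are the lowest of each group.

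For 13 members no histone mark peak was found in any of the 12 histone libraries, against 25.3% of all genes. They were Cx3cr1, P2ry13 and Gpr34, the surface proteins Siglech, Fcrls and Itgam, the phagocytic genes Trem2, Tyrobp and Fcer1g, and Ctss, Lyz2, Cd53 and Aif1. With the ATAC-seq libraries added, 11 members had no peak at all, against 24.6% of all genes. The promoter windows of Trem2 and Itgam printed above belong to this group. At the other end, 4 members were marked in all 12 histone libraries, Cd68, Itgb5, Olfml3 and Ptprc, against 55.6% of all genes. Of the 10 members marked by H3K9ac at E16.5, 4 were called higher in RNA and 6 were not, while of the 20 others 17 were called higher and 3 were not. Among all protein-coding genes tested in RNA, 3965 of 13208 marked genes and 226 of 616 unmarked genes (36.7%) were called higher, and in the members' RNA range 33.9% of 5678 marked and 39.0% of 431 unmarked genes were. The median RNA level of the members was 9.64 CPM for the 4, 2.83 CPM for the 6, 3.75 CPM for the 17 and 2.27 CPM for the 3.

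Several of the strongest peaks lay at places shared with other genes. The fold enrichment quoted for a peak is the authors' own value from their peak caller and serves to describe it within its list. At Lpcat2 the H3K9ac peak covered the start, with a fold enrichment of 42.7 and 35.9 at E16.5 and 25.4 and 25.6 at E13.5, and it lay within 2 kb of an end of Mmp2. At Cd68 the H3K9ac peak (50.2 and 38.7 at E16.5, 44.3 and 48.2 at E13.5) had its summit 3708 to 3720 bp downstream of the Cd68 start and within 2 kb of an end of Mpdu1. At Olfml3 a peak near the start lay within 2 kb of an end of Hipk1. When peaks within 2 kb of an end of another protein-coding gene were set aside, H3K9ac marked 8 members at E16.5 and 5 at E13.5, and Cd68 and Lpcat2 were the members that dropped out. Under that setting the shares of all genes were 55.3% at E16.5 and 51.6% at E13.5, below the 70.0% at E16.5 and 67.0% at E13.5 found with all peaks. Of the 30 members 9 have another protein-coding gene in the window.

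Peaks inside the gene, far from the start, accounted for others. In Ptprc, chr1:138062859-138175756, the H3K9ac summit lay 38623 to 38634 bp from the start in all 4 libraries, with a fold enrichment of 19.6 and 17.3 at E16.5 and 14.4 and 10.7 at E13.5. H3K9cr and ATAC-seq peaks stood at the same place. In Ly86, chr13:37345345-37419036, the peaks of all 3 histone marks and of ATAC-seq had their summits between 43039 and 43714 bp from the start, apart from a weaker second H3K18la peak at 75748 bp in 1 E16.5 library. Itgb5, chr16:33829665-33949338, had 7 and 8 H3K9ac peaks at E16.5 and 7 and 4 at E13.5, spread along its length, and 18 and 19 H3K18la peaks at E16.5 and 13 and 14 at E13.5. Mrc1 had no H3K9ac or H3K9cr peak and an ATAC-seq peak in both E13.5 libraries, 66175 and 66178 bp from the start.

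With a window of 2 kb around the annotated start alone, H3K9ac marked 5 of 23 members at E16.5, Irf8, Itgb5, Lpcat2, Olfml3 and P2ry12, and 4 at E13.5, the same genes without P2ry12. Of all genes with an annotated start, 65.2% were so marked at E16.5 and 62.9% at E13.5. H3K18la then marked 2 members at E16.5 and 3 at E13.5, against 51.8% of all genes at E16.5 and 55.4% at E13.5. Irf8, chr8:120736358-120756694, had an H3K9ac peak across its start in every library, with a fold enrichment of 14.6 and 13.2 at E16.5 and 9.69 and 10.4 at E13.5. Its H3K9cr peaks covered the same stretch (17.4 and 12.5 at E16.5, 14.1 and 11.2 at E13.5). H3K18la had a peak of 4.35 there in 1 E16.5 library, none in the other, and peaks of 4.99 and 6.03 at E13.5. The ATAC-seq peaks of Irf8 ran from -327 to -8 and from -169 to -38 bp relative to the start, inside the window printed above. Spi1, chr2:91082374-91115759, had H3K9ac and H3K9cr peaks at the higher-coordinate end of its span in all 8 libraries. It had no promoter window and its strand was not known here, so whether this end is its start was not assessed.

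**Figure D5:**
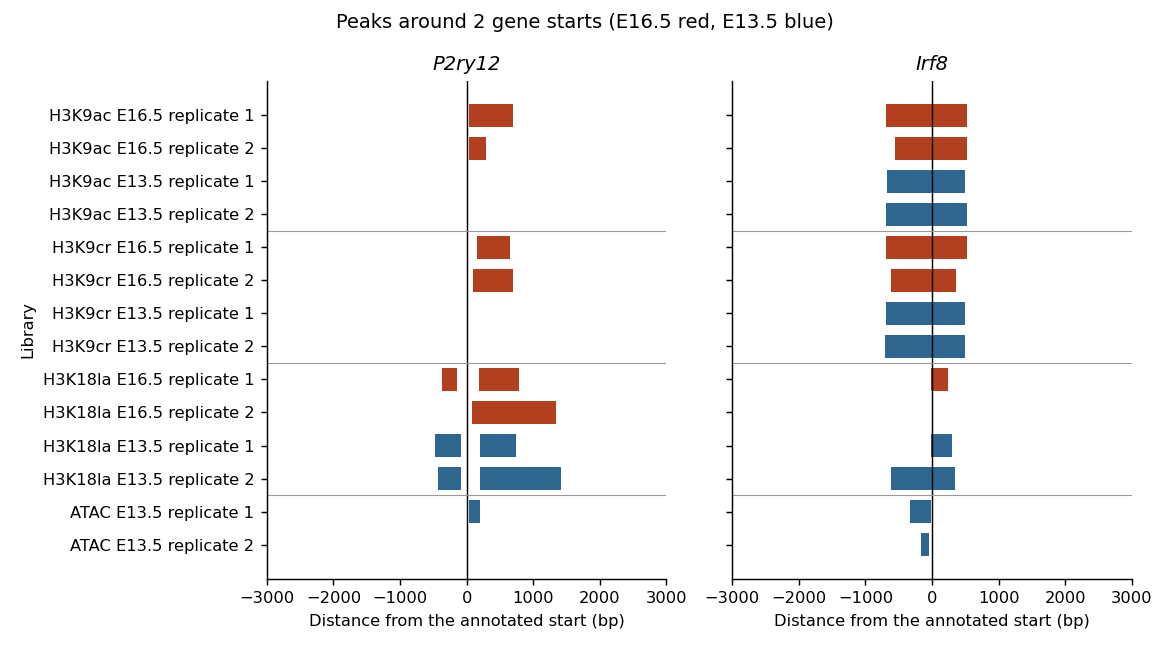
Peaks around the annotated start of P2ry12 and Irf8, by library, as distance in bp from the start along the gene, with red bars for E16.5 and blue bars for E13.5. P2ry12 has H3K9ac and H3K9cr bars at E16.5 and none at E13.5, while Irf8 has them in all 8 libraries.

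P2ry12 and C1qa gained H3K9ac, that is, were marked in both E16.5 libraries and in no E13.5 library, which held for 1.79% of all genes. Only genes without H3K9ac at E13.5 could gain it. At that stage 23.3% of members and 67.0% of all genes were marked in both libraries, so 1.79% is not a share of genes able to gain. In P2ry12, chr3:59216271-59262985, the H3K9ac peaks at E16.5 ran from 35 to 705 and from 34 to 291 bp after the start, with a fold enrichment of 6.45 and 5.45. The H3K9cr peaks at E16.5 ran from 159 to 653 and from 90 to 695 bp after it, with 4.55 and 4.57. No E13.5 library had either mark anywhere within 2 kb of the gene. An ATAC-seq peak from 38 to 203 bp was called in 1 E13.5 library, and in the other the peak lay 21589 bp from the start. P2ry12 was the member that gained both marks, and its RNA was called higher too. Another protein-coding gene, Med12l, overlaps the P2ry12 window. Setting aside peaks near the ends of other genes does not remove peaks inside them, and which gene these peaks serve was not tested.

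C1qa, chr4:136895916-136898844, gained small H3K9ac peaks, chr4:136896005-136896289 and chr4:136896034-136896269, near the lower-coordinate end of its span. Their fold enrichment was 4.05 and 4.42, and they ranked above 12.1% and 19.7% of the peaks of their lists. H3K9cr had no peak within 2 kb of C1qa at E16.5, and 1 E13.5 library had one at the same place, chr4:136896006-136896286, which ranked above 4.09% of its list. At a stricter −log10 q of at least 5, and with the same number of peaks taken from each library, P2ry12 kept its gain of H3K9ac and C1qa did not. H3K9cr was gained at Ly86 and P2ry12, against 1.28% of all genes, and at no member when all lists were shortened to equal length. The 1.28% is likewise a share of all genes and not of those unmarked at E13.5. No member lost H3K9ac or H3K9cr, which 0.118% and 0.0521% of all genes did. The E16.5 lists held more peaks than the E13.5 lists, with 49652 and 50668 at E16.5 and 37319 and 34532 at E13.5 for H3K9ac, and 41074 and 42304 at E16.5 and 32567 and 28968 at E13.5 for H3K9cr. The part of list length in these gains was not tested beyond that setting.

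H3K18la was also compared with H3K9ac gene by gene. No member gained or lost H3K18la, while 0.729% of all genes gained and 1.77% lost it. At E13.5, C1qa, Laptm5 and P2ry12 had H3K18la in both libraries and H3K9ac in neither, against 1.65% of all genes. At E16.5 the same held for Laptm5 alone, against 0.587% of all genes, since C1qa and P2ry12 were then acetylated. The E16.5 peaks of Laptm5, chr4:130921221-130921452 in the first library and chr4:130918560-130918851 in the second, did not overlap. No H3K18la site of Laptm5 was thus shared by the E16.5 libraries. Both shares are over all genes and not over genes without H3K9ac, which were a smaller part of all genes than of the members. With equal list lengths the single member at E16.5 was C1qa and not Laptm5. Laptm5 was not marked by H3K9ac, H3K9cr or ATAC-seq in any library.

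The length of sequence under H3K18la peaks was compared for the 15 members with such a peak in at least 1 library. In 5 of them, C1qa, Irf8, Laptm5, Spi1 and Tmem119, both E16.5 libraries had fewer bp than both E13.5 libraries, which held for 38.9% of all genes with a peak. In none did both E16.5 libraries have more, against 7.44% of all genes, and in the other 10 the stages overlapped, so the count of 5 is near the background. In Laptm5, chr4:130912890-130936148, it was 232 and 292 bp at E16.5 and 2349 and 2885 bp at E13.5, and the E16.5 peaks, with a fold enrichment of 3.22 and 2.90, ranked above 6.18% and 7.82% of the peaks of their lists. In C1qa it was 430 and 445 bp at E16.5 and 2034 and 1532 bp at E13.5, all near the higher-coordinate end of the span. In Tmem119, chr5:113793729-113800396, it was 610 and 0 bp at E16.5 and 1254 and 1364 bp at E13.5. Irf8 had 258 and 0 bp at E16.5 and 311 and 957 bp at E13.5, and Spi1 had 226 and 0 bp at E16.5 and 411 and 343 bp at E13.5. The stages overlapped in P2ry12, with 821 and 2361 bp at E16.5 and 1230 and 2181 bp at E13.5, and in Ly86, with 1106 and 1762 bp at E16.5 and 1457 and 263 bp at E13.5. At E16.5 the first H3K18la list held shorter peaks (a median of 486 bp) than the second (650 bp), against 634 and 648 bp at E13.5. Without that first library, Irf8, Spi1 and Tmem119 counted as having lost H3K18la, against 2.4% of all genes.

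Where a gene had both marks, the peaks did not always share sequence. Each mark has its own libraries, and an H3K9ac library was set beside the H3K18la library of the same stage and replicate number. These numbers are not stated to pair libraries. In P2ry12 at E16.5, 512 of 671 bp and 215 of 258 bp under H3K9ac also lay under H3K18la. In C1qa at E16.5 no base was shared, since the H3K9ac and H3K18la peaks lay at opposite ends of the span. In Ptprc 995 of 1367 bp and all 1516 bp under H3K9ac at E16.5, and all 905 and 747 bp at E13.5, lay under H3K18la as well. In Spi1, which had peaks of both marks in 3 of these 4 pairs of libraries, 30 bp were shared in 1 E16.5 pair, and 0 and 196 bp at E13.5.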

How the data were processed

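RNA-seq, ChIP-seq and ATAC-seq libraries were grouped by the stage, mark and replicate in the sample titles, and 18 of the 22 samples were used. The 4 inputs were not analysed here. The RNA values deposited by the authors were expected counts (estimated counts per gene). The submitters' processing notes name Salmon 1.1.0, and 24.4% to 25.3% of the values of a library were not whole. Another deposited table gave the authors' own log2 fold changes with p-values, and the notes name DESeq2 1.26.0. For peaks the notes name GRCm38, MACS2 2.2.7.1 and Bowtie2 2.4.1. Each deposited list gave each peak a pileup signal at its summit, a −log10 p-value and q-value, and a ratio (the fold enrichment over the caller's background), per the file headers. The sources used here do not give the read depth, the control sample or the caller's settings.

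After rounding, the counts entered edgeR 4.0.16 under R 4.3.3 (quasi-likelihood F test, TMM scaling, filterByExpr, Benjamini-Hochberg adjustment), after a check on simulated data. The alternatives were other scalings, filters on low counts, DESeq2 1.42.0, a replicate block, each library left out, and for peaks other windows, a stricter q, equal list lengths and, chosen after seeing the data, peaks near other genes set aside. Peaks were joined to RefSeq gene spans in Python 3.11.15. Strand was known only for genes in the promoter table, which had no window for C1qa, Tmem119, Selplg, Tyrobp, Csf1r, Spi1 and Gpr34. The 2 libraries of a stage differed by more than sampling noise, with a chi-square per degree of freedom of 7.88 at E16.5 and 6 at E13.5. The labels call them biological replicates, but how many animals each pooled is not stated, so the p-values measure the spread between these libraries.

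The members and the other lists were chosen with earlier results of these data known. All 30 members were described, with values per library. In the other lists up to 3 rising and 3 falling genes with the largest change and a mean of at least 1 CPM were named, except 1 gene of activated microglia not reported here, and every gene of a count of 5 or fewer could be.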

Additional observations from a re-analysis of the deposited data

How the results depend on the processing

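The count of members higher at E16.5 stayed within 1.5 times of 21 in all 10 RNA alternatives, at 15 to 22, and none was called lower in any. It was 21 with RLE scaling and with either filter, 22 with upper-quartile scaling, 16 with DESeq2 and 15 to 18 with 1 library left out. Upper-quartile scaling moved the median of all genes by 0.1 and the split of all calls to 5349 higher and 3820 lower, against 4605 and 4740. With a minimum of 1 CPM, Fcer1g was not tested. Leaving out 1 library gave Fcer1g log2 changes from -0.0079 (adjusted p = 0.993, without the first E13.5 library) to 0.36, and Mrc1 from -0.31 (adjusted p = 0.609, without the second E16.5 library) to 0.64, and the cause was not tested.

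The replicate numbers are not stated to pair libraries. Deviations of same-numbered libraries correlated at 0.183 over 10400 genes, and with 2 pairs this does not show pairing. With the replicate number as a block, 20 members were higher, 0 lower, and over all genes 4675 were higher and 4851 lower.

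Numbers of marked members were lower with the window around the start, which only 23 members have. They were then 5 (E16.5) and 4 (E13.5) for H3K9ac and for H3K9cr, 2 and 3 for H3K18la and 3 for ATAC-seq, with 1 gain of H3K9ac, 1 gain of H3K9cr, and H3K18la without H3K9ac in 0 members at E16.5 and 1 at E13.5. H3K9ac gains numbered 1 at a −log10 q of at least 5 and 1 with equal list lengths, where H3K9cr gains numbered 0. With 5 kb on each side, 1 member lost H3K18la, and H3K18la without H3K9ac was found in 0 members at E16.5 and 5 at E13.5. At a −log10 q of at least 5, 2 members lost H3K18la and 0 had it without H3K9ac at E16.5. With 1 library left out, gains ranged from 2 to 4 for H3K9ac, 2 to 3 for H3K9cr and 0 to 1 for H3K18la, losses from 0 to 1, 0 to 1 and 0 to 3 for these marks in that order, and H3K18la without H3K9ac from 1 to 2 members at E16.5 and from 3 to 4 at E13.5. With peaks near other genes set aside, H3K9cr marked 7 members at E16.5 and 5 at E13.5, H3K18la 7 at E16.5 and 10 at E13.5, and ATAC-seq 9 at E13.5. With 2 libraries per stage, the main fit called no member with a log2 change under 0.79, while it called Csf1, of another list, at 0.71. Over the alternatives the log2 change of P2ry12 ran from 0.64 to 0.95.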
